A study of Mus musculus with 16 samples.

Results

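The selenoprotein genes named Seleno, led by Selenop, were followed in mouse liver RNA under cadmium and dietary selenomethionine. The members are the rows of the deposited expression table whose gene name is Selenop, Selenow, Selenoh, Selenof, Selenok, Selenom, Selenon, Selenoo, Selenos or Selenot, and all 10 were found among the 57010 genes listed. The table covers liver RNA of 16 male wild-type C57BL/6J mice that fall into 4 groups of 4. The control group received neither agent. The Cd group received CdCl2 at 1.25 mg/kg by daily intraperitoneal injection for 7 days. The Se group received SeMet (selenomethionine) at 2 ppm in the diet for 3 months. The Cd+Se group received that diet with the injections during its final 7 days. The age given in the study's methods is 8 to 12 weeks, without a time point, and a figure legend of the study places 8 weeks at the start of the diet. An injection given to mice without Cd is not stated in the sources used here. Levels are in TPM (a transcript abundance scaled by transcript length and by the library total), so levels of different genes can be set side by side.

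Selenoproteins contain selenocysteine (Sec), an amino acid that carries selenium in place of the sulphur of cysteine. Sec is read from a UGA codon, which would otherwise end translation, with the help of a stem-loop in the 3' untranslated region of the mRNA and a dedicated tRNA and elongation factor. The liver is the main source of plasma selenoprotein P, the protein made from Selenop, which carries selenium in many Sec residues to other organs. Selenok, Selenos, Selenot, Selenof, Selenom and Selenon encode proteins of the endoplasmic reticulum (ER), whereas Selenow and Selenoh encode small thioredoxin-like proteins of the cytosol and nucleus, and Selenoo encodes a mitochondrial pseudokinase that attaches AMP to proteins.

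The number and place of Sec codons distinguish Selenop from the other 9 members. In the GENCODE M21 annotation of the mouse genome GRCm38, the Selenop reading frame of 380 codons held 10 Sec codons, and each of the other 9 reading frames held 1. The bases around the Sec codon are shown for Selenop and for the other 3 members that passed a test below (5' to 3', TGA of the Sec codon in capitals). For Selenop the first Sec codon and a closely spaced pair are given, since the former lies in the part of the protein related to thioredoxin and the pair shows the dense run near the end.
Selenop codon 59, exon 2, chr15:3274848-3274850, plus strand: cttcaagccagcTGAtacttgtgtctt
Selenop codon 366, exon 5, chr15:3279663-3279665, plus strand: gccaaccccaacTGAagctgagataat
Selenop codon 368, exon 5, chr15:3279669-3279671, plus strand: cccaactgaagcTGAgataatcagacc
Selenow codon 13, exon 2, chr7:15920464-15920466, minus strand: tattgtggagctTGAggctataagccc
Selenok codon 92, exon 4, chr14:29973440-29973442, plus strand: atggctggtggaTGAggaaggtaaatg
Selenot codon 49, exon 2, chr3:58585238-58585240, plus strand: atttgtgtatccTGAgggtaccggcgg
In Selenop, 9 of the 10 Sec codons lay from codon 259 onward, and only the first lay before it. The Sec codon of Selenow was codon 13 of 88, near the start. In Selenot (codon 49 of 195), Selenom (codon 48 of 145) and Selenoh (codon 38 of 116) it lay further in, before the middle. In Selenok (codon 92 of 94), Selenos (codon 189 of 190) and Selenoo (codon 665 of 667) it was among the last 3 codons before the stop. Selenof (codon 93 of 162) and Selenon (codon 428 of 557) had it past the middle but not at the end.

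**Figure D1:**
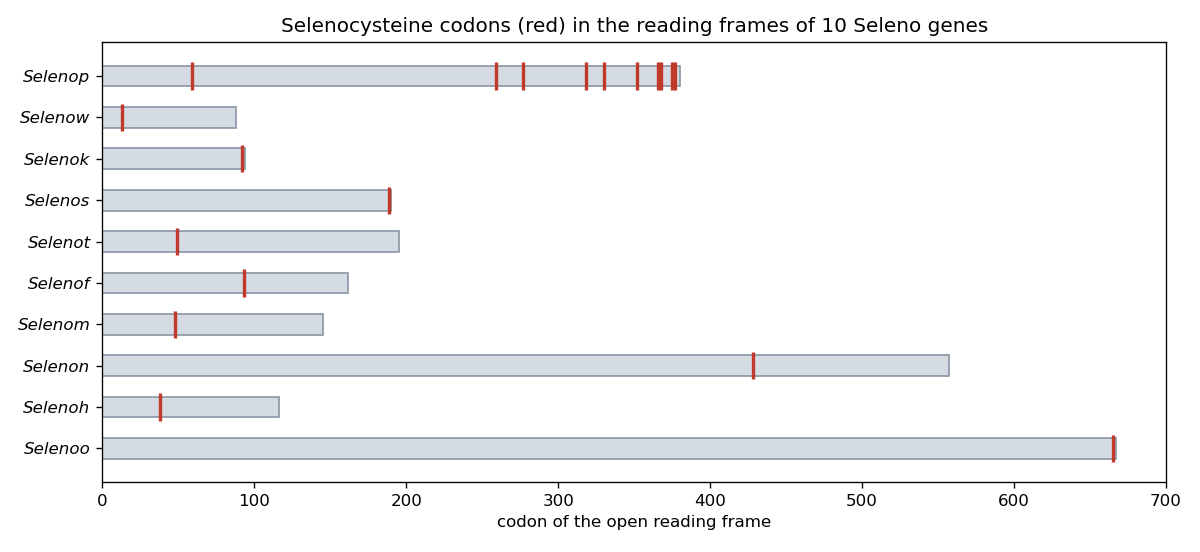
Selenocysteine codons in the reading frames of the 10 Seleno genes. The horizontal axis is the codon of the open reading frame (GENCODE M21), each grey bar is 1 reading frame and each red line 1 Sec codon; Selenop has 10 red lines, 9 of them from codon 259 onward, and each other gene has 1.

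The deposited values of every library add up to 1 common total, so read counts and depth are unknown. A limma model of log2(TPM + 1), where 1 is the pseudocount, was fitted to the 11766 genes that averaged 1 TPM or more, with all 16 mice in 1 fit and Benjamini-Hochberg adjustment over these genes. A gene was called at an adjusted p under 0.05, and fold changes on this scale understate those of genes with low levels. The median of all tested genes was itself shifted, by -0.17 on the log2 scale in Cd against control and by 0.17 in Cd+Se against Cd. Metallothioneins Mt1 and Mt2, which bind Cd, were used to check the labels: control livers held 116 ± 73.3 TPM of Mt1 (SD, n = 4), Se livers 261 ± 158, Cd livers 4066 ± 707 and Cd+Se livers 4880 ± 1274, and the lowest injected mouse (3178 TPM) was above the highest other mouse (431 TPM). All 8 hepatocyte markers averaged 1 TPM or more. The 5 Kupffer cell markers summed to 101 to 125 TPM in control, 54.7 to 138 in Se, 33.9 to 52.6 in Cd and 29.8 to 62.9 in Cd+Se mice, and the 6 markers of recruited monocytes and neutrophils to 7.81 to 17.6, 6.63 to 10.8, 34.1 to 44.3 and 49.1 to 79.3 TPM. Whole liver was sequenced, so fewer cells of a type and less RNA per cell cannot be told apart, and the part of cell composition in the results below was not tested.

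Selenop dominated the levels of the family. Its mean in control livers was 3677 ± 214 TPM (SD, n = 4), 33.7 times that of Selenof, the next member, and over all 16 mice it ranked at 44 among the 57010 genes. The control means then ran from Selenof (109 TPM) through Selenot (84.9), Selenow (74.9), Selenok (49.1), Selenos (44.2), Selenoo (22.9), Selenoh (10.7) and Selenom (1.61) to Selenon (0.525). Neighbours in this order had separate ranges in the 4 control mice, except Selenok and Selenos, whose ranges overlapped. The order was not fixed across groups, since Selenot exceeded Selenow in only 7 of the 16 mice. Selenon, with a mean under 1 TPM, stayed outside the model, and the other 9 members were tested.

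**Figure D2:**
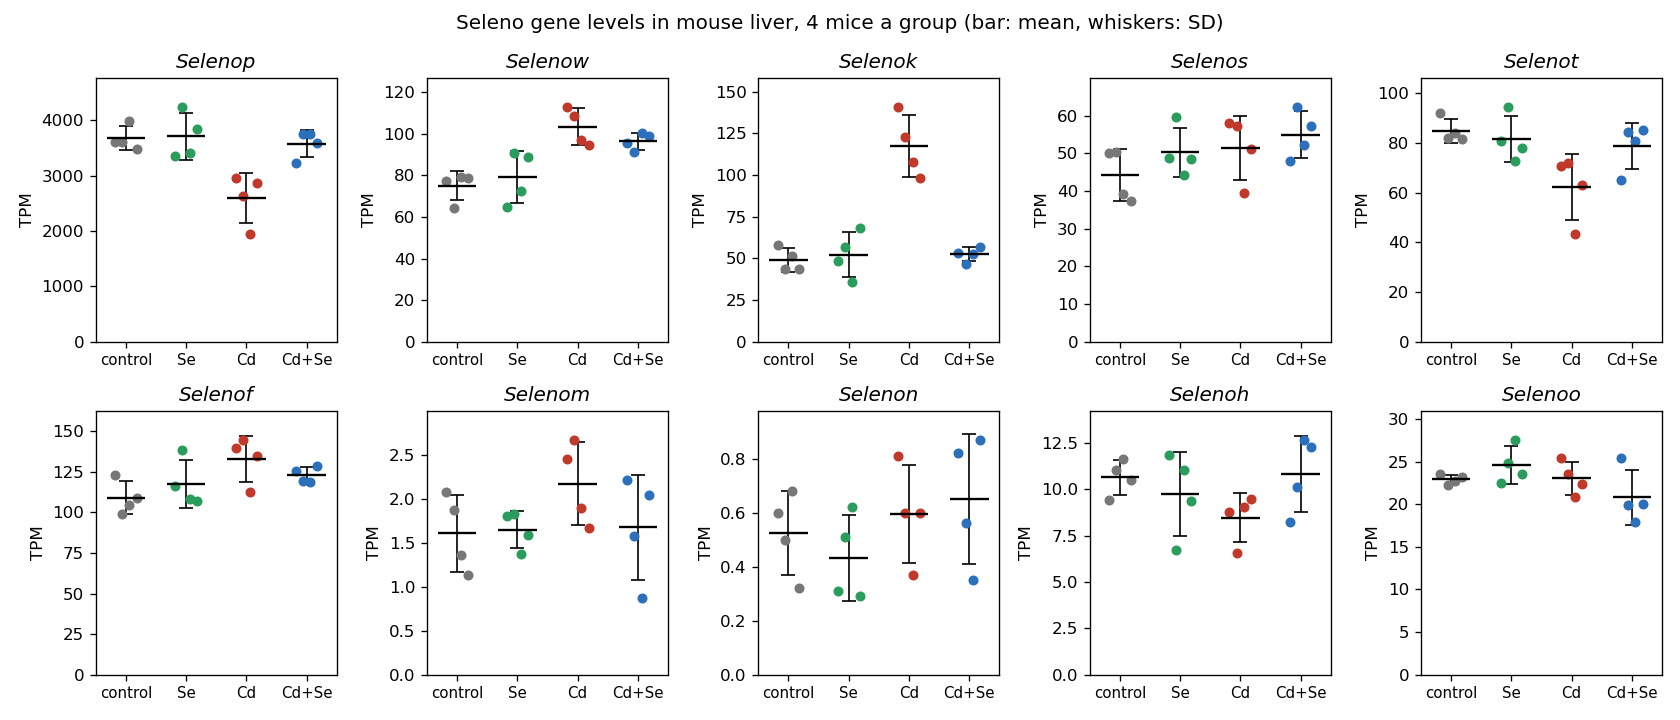
Levels of the 10 Seleno genes in TPM (vertical axes, from 0) in 4 groups of 4 mice. Each point is 1 mouse, the bar is the mean and the whiskers are the SD; the 4 Cd mice lie above all 12 others for Selenok (98.3 TPM or more against 68 TPM or less) and below all 12 others for Selenop (2952 TPM or less against 3229 TPM or more).

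Cadmium without the SeMet diet was the comparison with most calls among the members. Of the 9 tested, Selenok and Selenow were higher and Selenop and Selenot were lower in Cd than in control livers by limma, which makes 4 of 9 called beside 30.8% of all tested genes (685 higher and 2934 lower). The median change of the 9 was 0.21 on the log2 scale, against -0.17 for all tested genes. The split over all genes moved with the scaling, to 1710 higher and 2276 lower with quantile normalization (33.9% of tested genes called) and 2260 higher and 1804 lower with median centring (34.5%). Under either scaling 7 of the 9 members were called, 5 higher and 2 lower, Selenof, Selenom and Selenos being the added ones.

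Selenok, which encodes a small single-pass protein of the ER membrane that takes part in ER-associated degradation and in protein palmitoylation, showed the widest difference of any member. Control mice measured 57.8, 43.4, 51.6 and 43.4 TPM. Cd mice measured 141, 123, 108 and 98.3 TPM. Levels in Cd+Se mice were 53.2, 46.8, 53 and 57.1 TPM, and in Se mice 48.3, 56.8, 35.9 and 68 TPM. Every Cd mouse was thus above every mouse of the other 3 groups, which overlapped one another; 1.42% of tested genes had all 4 Cd mice above the 12 others. Selenok was 2.36-fold higher in Cd than in control livers (log2 change 1.24, SE 0.17, 95% interval 0.88 to 1.60, limma adjusted p = 0.00023) and kept its call under all 25 other settings tried. In the Cd+Se group it was 0.455 times the Cd level (log2 change -1.14, interval -1.50 to -0.78, limma adjusted p = 0.0030), again under all 25 other settings. These comparisons share the 4 Cd mice.

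The difference between the Cd effects on Selenok with and without the diet was tested directly. On the log2 scale the effect was 1.24 without SeMet and 0.04 (interval -0.32 to 0.40) with it, and the interaction of -1.20 (SE 0.24, interval -1.71 to -0.69) passed the threshold (limma adjusted p = 0.034). Selenok was the only member among the 9 whose interaction was called, beside 1.04% of all tested genes. Leaving out control mouse 27, 28, 29 or 30, Cd mouse 2, Cd+Se mouse 14 or Se mouse 39 or 44 ended this call, with adjusted p between 0.052 and 0.089, as did fitting without a filter on low values (limma adjusted p = 0.082), while the estimate over all 16 omissions stayed between -1.36 and -1.06. Of 7 pseudogenes named after Selenok or Selenot in the table, 6 were at 0 in all 16 mice and Selenok-ps1 reached at most 0.36 TPM.

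Selenop, the plasma selenium carrier, differed in the other direction. Control livers measured 3616, 3615, 3985 and 3490 TPM. Cd livers measured 2952, 2627, 1953 and 2868 TPM. Cd+Se livers measured 3229, 3750, 3755 and 3582 TPM, and Se livers 3351, 4249, 3407 and 3838 TPM. All 4 Cd mice were below the 12 others, as they were for 10.7% of tested genes, and Cd mouse 5 was the lowest of the 16. Selenop was 0.699 times the control level in Cd livers (log2 change -0.52, SE 0.13, interval -0.79 to -0.24, limma adjusted p = 0.0081), or -0.34 relative to the median of all tested genes. Without Cd mouse 5 the change was -0.39 and still called (limma adjusted p = 0.021).

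In Cd+Se against Cd livers Selenop was 1.39-fold higher (log2 change 0.48, SE 0.13, interval 0.20 to 0.75, limma adjusted p = 0.025), or 0.31 relative to the median of all tested genes. Without Cd mouse 5 the change was 0.35 and no longer called (limma adjusted p = 0.066), and leaving out Cd+Se mouse 14 or 15, fitting only the groups compared, or applying no filter on low values, also ended the call. The Cd effect on Selenop in SeMet-fed mice was -0.05 (interval -0.33 to 0.23, limma adjusted p = 0.94). The interaction of 0.47 (interval 0.08 to 0.86) did not pass the threshold over all genes (limma adjusted p = 0.17), so a difference between the Cd effects with and without the diet was not established for Selenop.

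Beside these Selenop values, the 8 hepatocyte markers (Alb, Ttr, Apoa1, Apob, Cps1, Tat, Cyp2e1 and Hpd) summed to 60630 to 82800 TPM in control, 60600 to 111600 in Se, 39940 to 66390 in Cd and 51500 to 71260 in Cd+Se mice. Alb made up most of these sums, with means of 52070 TPM in control and 33210 in Cd livers. By limma 2 of the 8 (Cps1 and Hpd) were lower in Cd than in control livers. Alb (log2 change -0.685, limma adjusted p = 0.056), Apob (-0.34) and Cyp2e1 (-0.37) were lower there without a call. Tat (0.57), Apoa1 (0.43) and Ttr (0.09) were higher there without a call. In Cd+Se against Cd livers 2 (Cps1 and Apob) were higher. Of all tested genes, 30.8% were called in Cd against control and 15.9% in Cd+Se against Cd. Whether hepatocyte content contributed to the level of Selenop was not tested. Of 4 transcriptional regulators of Selenop on a fixed list, Hnf4a and Foxo1 were lower in Cd than in control livers and higher in Cd+Se than in Cd livers, whereas Foxo3 and Ppargc1a were not called in either comparison. Hnf4a, a nuclear receptor of hepatocytes, changed by -0.81 (limma adjusted p = 0.0017) and by 0.58 (limma adjusted p = 0.024) in the same comparisons. Foxo1, an insulin-regulated transcription factor named here after its values were seen, changed by -0.43 (limma adjusted p = 0.045) and by 0.49 (limma adjusted p = 0.042). The calls of Foxo1 were lost under 13 and 16 of 25 other settings, and that of Hnf4a in Cd+Se against Cd under 6. In the Cd effect over both diets Hnf4a was lower (-0.51, limma adjusted p = 0.0048) and Ppargc1a, a coactivator of both factors, was higher (0.61, limma adjusted p = 0.046), the latter losing its call under 13 of 23 other settings. Of 3 receptors for selenoprotein P, only Lrp1 reached 1 TPM on average, and it was not called in any comparison.

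The 3' end of Selenop is shared with another gene. Ccdc152 (ENSMUSG00000091119, chr15:3280070-3303526, minus strand, GRCm38) lies on the opposite strand to Selenop (ENSMUSG00000064373, chr15:3268547-3280508, plus strand), and their exons share 439 bases at chr15:3280070-3280508. The only other member that shared exon bases with a neighbour was Selenoo, with 998 bases in common with Tubgcp6 on the opposite strand. Whether strand was used in counting is not given in the sources used here, and without it reads of the shared bases cannot be told apart. Ccdc152 measured 8.18, 6.70, 7.60 and 7.01 TPM in control, 17.1, 11.7, 13 and 12.7 TPM in Cd, 7.74, 7.14, 9.13 and 7.60 TPM in Cd+Se and 7.86, 9.04, 6.95 and 9.98 TPM in Se livers. All 4 Cd mice were above the 12 others, as they were for 1.42% of tested genes, in the direction opposite to Selenop. Ccdc152 was 1.74-fold higher in Cd than in control livers (log2 change 0.80, interval 0.52 to 1.07, limma adjusted p = 0.00066) and 0.612 times the Cd level in Cd+Se livers (limma adjusted p = 0.0060). Its level was 0.201% ± 0.0182 of that of Selenop in control and 0.533% ± 0.108 in Cd livers (SD, n = 4). Tubgcp6 was not called in Cd against control (log2 change -0.27, interval -0.55 to 0.01, limma adjusted p = 0.13).

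**Figure D3:**
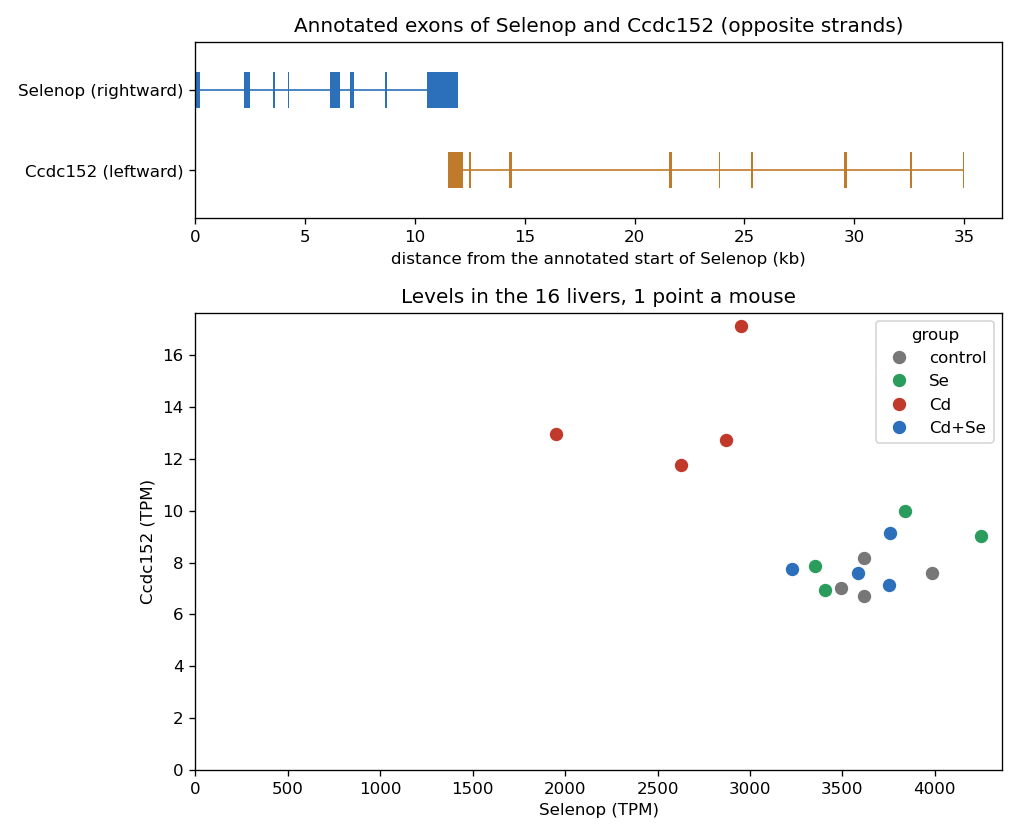
Upper panel, annotated exons of Selenop and Ccdc152 (bars) by distance from the start of Selenop in kb, which share 439 bases at the end of Selenop. Lower panel, Ccdc152 against Selenop in TPM with 1 point for each of the 16 mice; the 4 Cd mice stand apart, with Selenop at 2952 TPM or less and Ccdc152 at 11.7 TPM or more.

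Selenow, a small cytosolic protein with a thioredoxin-like fold, was higher in Cd than in control livers, and its Cd+Se values lay above those of the Se group. Control livers measured 77.1, 64.5, 79.2 and 78.8 TPM and Se livers 64.9, 90.9, 72.7 and 88.7 TPM. Cd livers measured 113, 108, 97.1 and 94.7 TPM and Cd+Se livers 95.5, 91.2, 100 and 98.7 TPM. All 8 injected mice (99.9 ± 7.35 TPM, SD) were above all 8 others (77.1 ± 9.71 TPM), the closest being a Cd+Se mouse at 91.2 and a Se mouse at 90.9 TPM, and 0.391% of tested genes were separated this way. Selenow was 1.38-fold higher in Cd than in control livers (log2 change 0.46, SE 0.12, interval 0.21 to 0.71, limma adjusted p = 0.0084). In Cd+Se against Se it was 1.22-fold higher (interval 0.04 to 0.54 on the log2 scale), which was not called (limma adjusted p = 0.35). The interaction was not called either, so no difference between the diets was established.

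Selenot, an ER protein of the thioredoxin-like family that also holds Selenow and Selenoh, was lower in Cd livers. Control mice measured 92, 82.2, 84 and 81.6 TPM, and Cd mice 70.8, 72.1, 43.5 and 63.1 TPM, without overlap; all 4 Cd mice were below the 4 control mice for 27.8% of tested genes. Cd+Se mice measured 65, 84.3, 81 and 85.1 TPM, which overlapped both, and Se mice 80.7, 94.7, 73 and 78.2 TPM. The log2 change was -0.47 in Cd against control (SE 0.15, interval -0.78 to -0.15, limma adjusted p = 0.025). Cd mouse 5 was again the lowest, and without it the change was -0.30 and not called (limma adjusted p = 0.068); leaving out control mouse 27 or 29, or applying no filter on low values, ended the call as well. In Cd+Se against Cd the log2 change of 0.35 (interval 0.04 to 0.66) was not called (limma adjusted p = 0.11). It was called under 1 of 25 other settings, quantile normalization.

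The other ER members were not called in any comparison as fitted here. Selenof, a partner of the glycoprotein folding sensor UGGT, averaged 109 ± 10.3 TPM in control, 133 ± 14.1 in Cd, 117 ± 14.6 in Se and 123 ± 4.87 in Cd+Se livers (SD, n = 4). Its Cd change of 0.28 (interval 0.05 to 0.52, limma adjusted p = 0.064) was called under 7 of 25 other settings. Selenos, which binds the ER-associated degradation machinery together with Selenok, averaged 44.2 ± 6.97, 51.5 ± 8.56, 50.3 ± 6.57 and 55 ± 6.20 TPM in the same order. Its Cd change was 0.21 (interval -0.10 to 0.52), so that Selenok stood at 112% ± 18.9 of Selenos in control, 231% ± 34.8 in Cd, 104% ± 25.5 in Se and 96.8% ± 15.3 in Cd+Se livers. Selenom, related to Selenof, ranged from 0.87 to 2.67 TPM over the 16 mice (Cd change 0.29, interval -0.09 to 0.66). Selenon, a regulator of ER calcium uptake, ranged from 0.29 to 0.87 TPM, with the groups overlapping in all 4 pairwise comparisons. Its lowest p was 0.17 (exact two-sided permutation test, Cd+Se against Se, adjusted p = 0.69 over 4 comparisons), where 4 against 4 mice allow 0.029 at the least.

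Selenoh and Selenoo were not called in any comparison. Selenoh, a redox protein of the nucleolus, averaged 10.7 ± 0.939 TPM in control, 8.49 ± 1.32 in Cd, 9.76 ± 2.28 in Se and 10.9 ± 2.06 in Cd+Se livers (SD, n = 4), with a Cd change of -0.31 (interval -0.66 to 0.05). Selenoo was the steadiest member in control mice, at 22.3 to 23.5 TPM, and measured 20.8 to 25.4 in Cd, 22.5 to 27.6 in Se and 17.9 to 25.5 TPM in Cd+Se mice. Its Cd change was 0.00 without the diet (interval -0.23 to 0.24) and -0.24 with it (interval -0.47 to -0.01, limma adjusted p = 0.44).

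**Figure D4:**
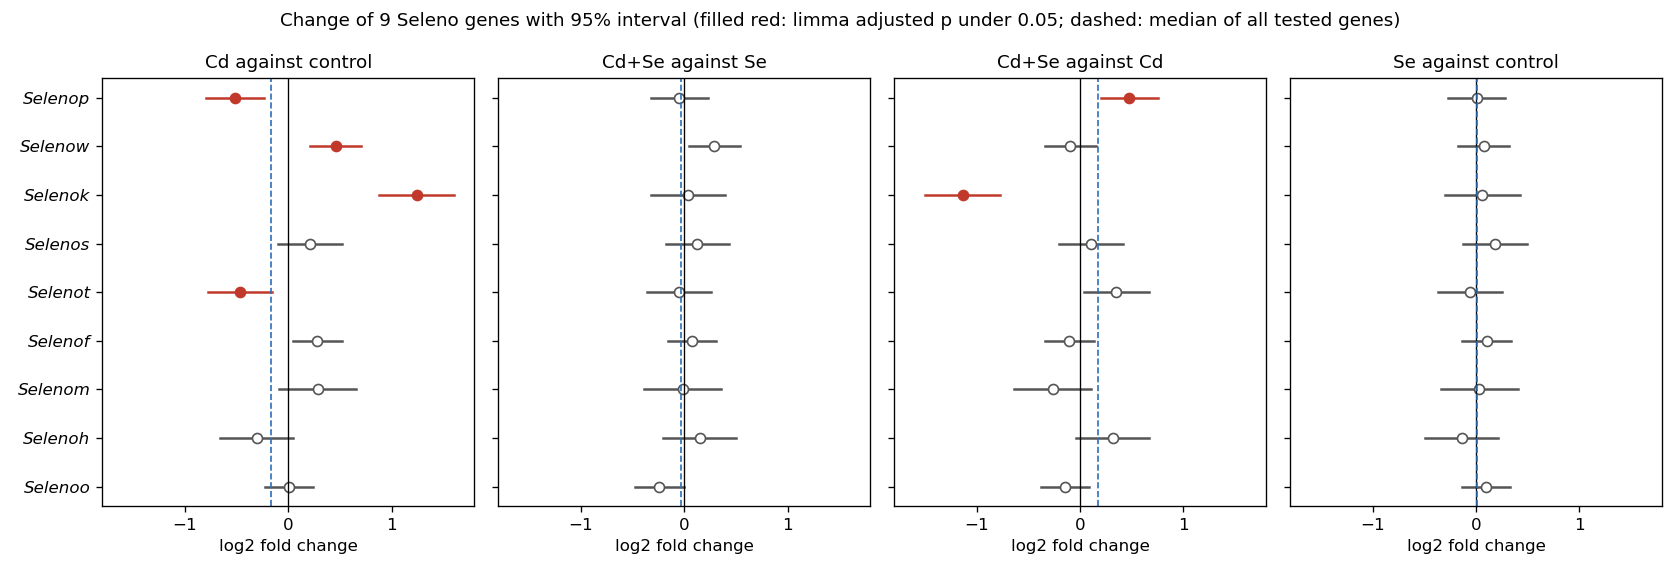
Log2 fold change (horizontal axes) of the 9 tested Seleno genes in the 4 pairwise comparisons, with 95% intervals. Filled red points passed the limma threshold and dashed lines mark the median of all tested genes; in Cd against control Selenok and Selenow lie to the right and Selenop and Selenot to the left of it, Cd+Se against Cd has the calls of Selenok and Selenop only, and the other panels have none.

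Between Cd+Se and Cd livers, 2 of the 9 members were called, Selenok lower and Selenop higher, beside 15.9% of all tested genes (1600 higher and 276 lower). With median centring 5 of 9 were called, 1 higher (Selenop) and 4 lower (Selenok, Selenow, Selenof and Selenoo), beside 18.8% of all tested genes, of which 937 were higher and 1272 lower. With quantile normalization 3 of 9 were called, 2 higher (Selenop and Selenot) and 1 lower (Selenok). Under that setting 17.7% of all tested genes were called, 1170 higher and 908 lower. With only the groups compared, 47 genes were higher and 19 lower (0.561%), Selenok among the latter. In Cd+Se against Se livers none of the 9 was called by limma, beside 0.714% of all tested genes. There 2 of the 9 (Selenow and Selenoo) had an unadjusted p under 0.05, beside 1286 of the 11766 tested genes. For the SeMet diet alone, Se against control, none of the 9 was called, none had an unadjusted p under 0.05, and 0% of all tested genes were called by limma although 454 of them had an unadjusted p under 0.05. The diet change of Selenop without Cd was 0.01 on the log2 scale (interval -0.27 to 0.29), that of Selenok 0.06 (interval -0.30 to 0.42) and that of Selenow 0.07 (interval -0.18 to 0.32).

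Averaged over both diets, 8 injected against 8 other mice, the Cd effect was called for 3 of 9 members beside 25.1% of all tested genes. Selenok (0.64, interval 0.39 to 0.89, limma adjusted p = 0.0020) and Selenow (0.38, interval 0.20 to 0.55, limma adjusted p = 0.0051) were higher, and Selenop (-0.28, interval -0.48 to -0.09, limma adjusted p = 0.035) was lower. The average for Selenok joins an effect of 1.24 with one of 0.04, and that for Selenop lost its call under 9 of 24 other settings. Averaged over mice with and without Cd, the SeMet effect was called for none of the 9 by limma, beside 0.178% of all tested genes. An unadjusted p under 0.05 was found for 2 of the 9 members, beside 2292 of the 11766 tested genes. The 2 members were Selenok (-0.54, interval -0.79 to -0.28, limma adjusted p = 0.065), which passed under 4 of 24 other settings, and Selenop (0.24, interval 0.05 to 0.44, limma adjusted p = 0.18).

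The changes of all genes under Cd moved with transcript length. In Cd against control the median log2 change was 0.16 for the 1014 tested genes with a longest transcript of up to 1000 bases and -0.30 for the 3852 with more than 4000 bases, whereas in Cd+Se against Se the medians were -0.01 and -0.02. The longest transcripts are 736 bases in Selenow, 1678 in Selenok, 2085 in Selenop and 3157 in Selenot. After a correction for length and GC content of each library, chosen after seeing the data, the Cd change was 0.31 for Selenow, 1.31 for Selenok, -0.41 for Selenop and -0.33 for Selenot, all of which stayed called by limma.

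With 10 Sec codons in Selenop, the pool of Sec codons largely restates the level of this gene. The summed level of all 24 selenoprotein genes, the 10 members with 14 others, was 6834 ± 248 TPM in control, 6860 ± 471 in Se, 5882 ± 525 in Cd and 6587 ± 338 in Cd+Se livers (SD, n = 4). With each gene weighted by its number of Sec codons, the sum was 39920 ± 2050 TPM-weighted Sec codons in control, 40260 ± 4198 in Se, 29280 ± 4581 in Cd and 38800 ± 2558 in Cd+Se livers. The highest Cd mouse (33000) was below the lowest of the 12 others (35180), as for Selenop itself and for 10.7% of tested genes. Selenop made up 53.8% ± 2.77 of selenoprotein transcripts but 92.1% ± 0.840 of their Sec codons in control livers, and 44% ± 4.34 and 88.6% ± 1.92 in Cd livers. These sums describe mRNA and not translation, and no test was made on them.

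**Figure D5:**
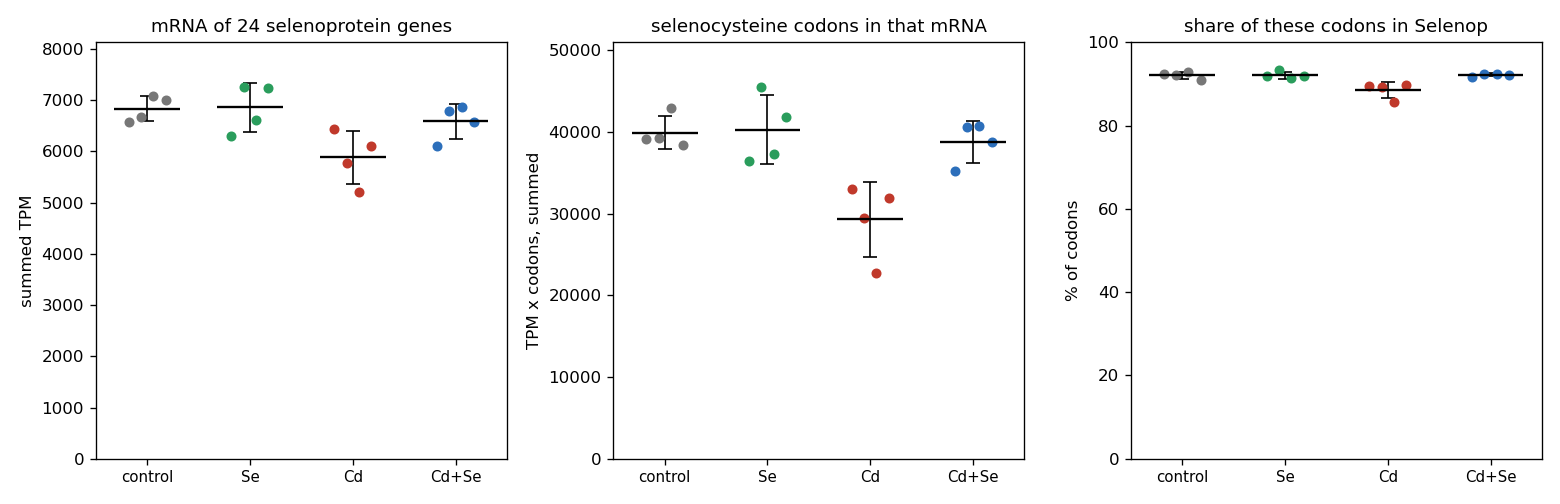
Summed TPM of the 24 selenoprotein genes (left), the same weighted by the number of Sec codons of each gene (middle) and the share of these codons in Selenop in % (right), all from 0. Each point is 1 mouse, the bar is the mean and the whiskers are the SD of 4 mice; in the middle panel the 4 Cd mice lie at 33000 or less and the 12 others at 35180 or more.

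Of the 14 selenoprotein genes outside the family, 10 were tested, and by limma 1 was higher and 3 were lower in Cd than in control livers. Over all tested genes 30.8% were called there (685 higher and 2934 lower). None of the 10 was called in the other 3 pairwise comparisons, of which Cd+Se against Cd had 15.9% of all tested genes called. The higher one was Gpx4, the lipid hydroperoxide reductase (log2 change 0.46, limma adjusted p = 0.038). The lower ones were Selenoi, an enzyme of phospholipid synthesis (-0.56, limma adjusted p = 0.022), Sephs2, which makes the selenium donor for Sec (-0.33, limma adjusted p = 0.026), and Msrb1, a methionine sulphoxide reductase (-0.27, limma adjusted p = 0.040). Apart from Selenoi these were named after their values were seen, and Gpx4, Selenoi, Sephs2 and Msrb1 lost their calls under 7, 6, 7 and 10 of 25 other settings. Their longest transcripts are 995, 6803, 2177 and 1211 bases in the same order, to be read beside the medians by length given above. Of 10 listed genes of Sec synthesis and insertion, 9 were in the table and tested. Of these, 0 were higher and 3 were lower in Cd against control, beside the same 30.8% of all tested genes. Sepsecs, the enzyme that completes Sec on its tRNA, changed by -0.41 (limma adjusted p = 0.0020) and Scly, which frees selenium from Sec, by -0.33 (limma adjusted p = 0.0048) in the Cd effect over both diets, and both stayed called under all 24 other settings. The third gene lower in Cd against control was Sephs2, which is on both lists, and Sepsecs was the 1 gene of this list called in Cd+Se against Cd, where it was higher.

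Calls among the ER partners of the members lay in both directions, as did those over all tested genes. Of 13 genes of ER-associated degradation that work with Selenos and Selenok, 1 was higher and 4 were lower in Cd against control. Over all tested genes 30.8% were called there (685 higher and 2934 lower). In the Cd effect over both diets Derl3, a derlin channel protein, was higher (0.63, limma adjusted p = 0.027) and Faf2 was lower (-0.29, limma adjusted p = 0.026), with the calls lost under 6 of 23 and 2 of 24 other settings. Of 12 tested genes of ER folding and calcium uptake, 1 was higher (Calr) and 2 were lower (Canx and Ero1a) in Cd against control. In Cd+Se against Cd 1 (Ero1a) was higher, where 15.9% of all tested genes were called. Genes named for this pairwise count were looked up after their values were seen. Over both diets the chaperone genes Calr (0.39, limma adjusted p = 0.017) and Pdia3 (0.26, limma adjusted p = 0.047) were higher and the oxidase gene Ero1a (-0.36, limma adjusted p = 0.022) was lower. The call of Pdia3 was lost under 15 of 24 other settings. The median change in Cd against control was -0.11 for the degradation list and 0.01 for the folding list, against -0.17 for all tested genes.

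The genes whose levels over the 16 livers were most like those of Selenop, by Pearson's r of log2(TPM + 1) among 10483 tested protein-coding genes, were Cltc (0.98), Dnaja2 (0.98), Cdc37 (0.98), Ddx19a (0.98) and Ube2v1 (0.98). After the group means were taken out, r was between 0.92 and 0.95 for these 5. The points share the scaling of their library and the 4 Cd mice stand apart in Selenop, so these values are descriptions. For Selenok, looked up after its values were seen, the most alike were Gnas (0.96) and Ccdc152 (0.95), then Gadd45gip1 (0.94), Uqcrq (0.92) and Ndufa3 (0.92). After the group means were taken out, r was 0.82, 0.79, 0.69, 0.60 and 0.655 in the same order.

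Promoter sequences were read from RefSeq (GRCm38.p6) for all 10 members, 250 bases before to 50 after each start. Motifs were searched on both strands, and the antioxidant and FoxO matches of Selenok and Selenop are printed with the motif in capitals. The Selenok window held the antioxidant response element core TGACNNNGC, found in 12.4% of 32851 promoter windows, and it was the only one of 12 member windows to do so.
Selenok, chr14:29968326-29968354, plus strand: gttacttgtgTGACTGGGCggaacctcta
The Selenop window held the FoxO core GTAAACA, found in 3.6% of all windows and in no other member window.
Selenop, chr15:3270942-3270970, plus strand: cagagggcgagGTAAACAacagggctata
The CCAAT box, found in 37.4% of all windows, was in 5 of the 12 member windows, those of Selenof, Selenoh, Selenok, Selenoo and Selenos. The metal response element core TGCACNC, found in 12.6% of all windows, was in 1 of the 12 member windows (Selenot). Its other form TGCGCNC, found in 15.4% of all windows, was in 3 of the 12 (Selenow, Selenot and Selenom). The ER stress response element was in none of the 12 member windows and in 0.1% of all windows. A match is a description of the sequence and not of a bound factor.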

How the data were processed

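Liver mRNA, selected by poly(A), of 16 mice in 4 groups of 4 was sequenced. The authors deposited 1 table of TPM values for 57010 genes with 1 column per mouse. Each sample title lists more than 1 replicate name for its column, and whether these are read files or merged libraries was not resolved here. The submitters' processing notes name fastp, HISAT2 and StringTie without versions or roles. They also name a human genome build although the gene identifiers are those of mouse, so the build behind the values is uncertain. The authors' scaling removes depth, so counting error and detection floors cannot be given. The members and gene lists were chosen with earlier results of these data known.

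From these values, log2(TPM + 1) of 11766 genes averaging at least 1 TPM was fitted with limma 3.58.1 in R 4.3.3 (group means, moderated variance with a trend, Benjamini-Hochberg adjustment at 0.05), after a check on simulated data. The comparisons were Cd against control, Cd+Se against Se, Cd+Se against Cd, Se against control, the mean Cd effect, the mean SeMet effect and their interaction. Selenon, under 1 TPM, was compared by exact permutation tests in SciPy 1.17.1. Text names all 10 members, of each list up to 3 called genes with the lowest adjusted p in the mean Cd effect, and the 5 genes most correlated with Selenop; others are said to be named after their values were seen. One result on a listed gene is not reported here. Alternatives were a pseudocount of 0.1, no filter or a minimum mean of 5 TPM, quantile normalization, median centring, rescaling to nuclear protein-coding genes, only the groups compared, no variance trend, leaving out each mouse and, added after seeing the data, a loess correction for transcript length and GC content (span 0.5, 11561 genes with an annotated length). Selenocysteine codons and overlaps came from GENCODE M21 (GRCm38) and promoters from RefSeq (GRCm38.p6). Of the 16 libraries, 0 of 120 pairs held identical values.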

Additional observations from a re-analysis of the deposited data

Results flagged for a closer look

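Selenok differed in its response to Cd between the diets: the Cd effect with SeMet minus that without it was -1.20 on the log2 scale (SE 0.24), tested as an interaction by limma (adjusted p = 0.034). Leaving out any of 8 single mice, or applying no filter on low values, ended this call.

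In the 4 control mice, the level of Selenow in mouse 28 (64.5 TPM) lay far below the other three, which ran from 77.1 to 79.2 TPM. The gap took up 0.855 of the range of the group, above Dixon's 95% critical value for 4 samples. Of 40 combinations of member and group looked at this was the only one, where chance flags about 1 in 20.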

How the results depend on the processing

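Each comparison was refitted under up to 25 other settings. Counts are of the 9 tested members, each with the share of all tested genes called under the same setting in parentheses. The 4 calls (30.8%) in Cd against control became 7 (33.9%) with quantile normalization and 7 (34.5%) with median centring. The 2 calls (15.9%) in Cd+Se against Cd became 1 (4.05%) without a filter on low values and 1 (0.561%) with only the groups compared. They became 5 (18.8%) with median centring, 3 (17.7%) with quantile normalization and 3 (14.3%) with the length and GC correction. When single mice were left out they ran from 1 to 2, the fewer without Cd mouse 5 (6.47%) or Cd+Se mouse 14 (6.21%) or 15 (11.1%). The 3 calls (25.1%) of the mean Cd effect became 6 (29.8%) with quantile normalization, 5 (32.6%) with rescaling to nuclear protein-coding genes and 5 (28.8%) with the length and GC correction chosen after seeing the data. The mean SeMet effect went from 0 calls (0.178%) to 1 (Selenok) with quantile normalization (2.32%), 1 with median centring (3.48%), 1 with rescaling (1.17%) and 1 with the length and GC correction (2.02%). The interaction call (1.04%) became 0 without a filter (0.093%) and ran from 0 to 1 when single mice were left out, at 0.0255% to 0.408% where it was 0. Cd+Se against Se and Se against control had 0 member calls under every setting run. Of 1426 single values, 1234 kept direction and side of the threshold, 152 lost their call, 20 gained one and 20 turned direction, all of the last uncalled. The turned values were Selenos in Cd+Se against Cd (-0.092 with median centring, and -0.017 to 0.165 when single mice were left out) and Selenop in Se against control (-0.005 with quantile normalization, -0.001 with median centring, -0.028 with rescaling, -0.004 with the length and GC correction, and -0.059 to 0.055 when single mice were left out). When single mice were left out, Selenok ran from -0.074 to 0.227 in Se against control, Selenoo from -0.043 to 0.049 in Cd against control, and in Cd+Se against Se Selenop ran from -0.095 to 0.019, Selenok from -0.123 to 0.177 and Selenot from -0.102 to 0.038. The cause of these differences was not tested. No paired analysis was possible because mouse numbers are not shared between groups. Depth is unknown, so its limit on the low levels of Selenom and Selenon could not be given.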
